A study of Stropharia rugosoannulata with 3 samples.

Results

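Among the gene models of the wine-cap mushroom *S. rugosoannulata*, 200 were examined that are the shortest of those with ample reads in mycelia. Mycelia were grown on potato dextrose agar (PDA) at 25 °C. They gave 3 RNA-seq libraries, numbered 1 to 3 here, all of a single condition with no treated or control group. The sample titles name S68, a monokaryotic strain derived from the cultivar “Heinong No. 1”, whereas the strain label and the transcriptome methods of the paper name the cultivar itself, so which of them gave the RNA cannot be told apart. The labels do not say whether the libraries came from separate cultures, so the spread between them may be technical. Of the 11750 gene models, 8286 had at least 200 counts in every library. The 150 models with the highest mean FPKM (fragments per kilobase of model, scaled by the sequencing depth) were then set aside, and the remaining 8136 ranked models were ordered by the mean over the libraries of count divided by FPKM, a ratio proportional to the model length. The members are the 200 lowest, which are 1.70% of all models and 2.46% of the ranked ones. The members were thus chosen by counts and FPKM of these same libraries, and their lengths and levels are a description.

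Short transcripts are a mixed class in fungi. They encode, among others, ribosomal proteins, small subunits of mitochondrial complexes, and small secreted proteins such as the hydrophobins, which coat aerial hyphae and fruiting bodies of mushrooms. In baker's yeast, short coding sequences tend to be the more highly expressed. Short models are also the hardest to predict, because a short reading frame offers little sequence to judge it by. The tables used here pair no model with a function, so the members are named by their identifiers, and mycelial marker genes could not be checked. None of the 10 models that the text of the paper names was a member (0 of 10). As the members are 1.70% of all models, this count says little about them.

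Count divided by FPKM was a whole multiple of a fixed unit in each library for models with many counts, and with the largest such unit taken as 1 base this gave the length of each model. For all 200 members, exactly 1 whole length was allowed by the 3 libraries together. Over the 8286 models past the count floor, 7424 had 1 allowed length, 862 had more than 1, and 0 had none. The members were 152 to 354 bases long, with a median of 299, against a median of 1359 bases over the ranked models, which is 4.55 times as long. There were 13 members under 200 bases, 34 from 200 to below 250, 54 from 250 to below 300, and 99 of 300 or more. A model of 152 bases holds at most 50 whole codons and one of 354 bases at most 118, whatever part of it is coding. The lower quartile of the ranked models was 890 bases, and that the members are shorter follows from the rule.

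The 6 shortest members were SRUG_05084 with 152 bases, SRUG_10542 with 162, SRUG_03312 with 170, SRUG_11380 with 174, SRUG_08712 with 177 and SRUG_05725 with 179. At the other end, SRUG_05089 had 353 bases, and SRUG_01682 and SRUG_03088 had 354 bases each, while the first models outside the limit were SRUG_06346 with 355 bases, and SRUG_00779 and SRUG_07515 with 356 bases each. The limit thus fell at no gap in length. The lengths were not restricted to multiples of 3. Of the members, 70 (35.0%) had a length that is a multiple of 3, 57 (28.5%) left a remainder of 1, and 73 (36.5%) a remainder of 2, against 31.6%, 33.3% and 35.1% of the models past the floor with 1 allowed length. Most of the lengths recovered here were thus not whole numbers of codons. Why this is so, and whether the models hold more than coding sequence, was not tested.

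The members lay high among all models. Their mean FPKM had a median of 105, with quartiles of 64.1 and 215, against a median of 23.9 over all 11750 models and of 40.7 over the models past the floor. By library, the median of the members was 114, 103 and 102 FPKM in libraries 1, 2 and 3, and that of all models was 21.0, 25.4 and 23.8. A mean FPKM above the median of all models was found for 198 of the 200 members (99.0%), against 70.4% of the models past the floor and 69.1% of the other ranked models. The exceptions were SRUG_11541 and SRUG_05065. The 198 of 200 was largely set by the count floor. Over the libraries, 200 counts stand for 38.5 to 41.2 FPKM at the shortest member and 16.5 to 17.7 at the longest. At the median length of the ranked models they stand for 4.30 to 4.61 FPKM, so the shares above do not compare alike. By level, 31 members were below 50 FPKM, 60 from 50 to below 100, 53 from 100 to below 200, and 56 at 200 or more. Together, the members carried 4.21%, 3.99% and 3.74% of the summed FPKM in libraries 1, 2 and 3, but 1.12%, 1.07% and 0.999% of the counts.

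This contrast depended on the correction for length. In CPM (counts scaled to a common library total, with TMM normalization), which are not corrected for length, the members had a median of 35.8, against 57.6 for the other ranked models and 32.9 for all models. By this measure 105 of the 200 members were above the median of all models, where 70.8% of the models past the floor were.

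The highest members were close together in level. SRUG_09150, of 338 bases on contig 10, had 405, 1375 and 282 FPKM in libraries 1, 2 and 3, so that library 2 carried most of its mean of 688 ± 599 FPKM (SD, n = 3). SRUG_05089 on contig 5 had 659, 873 and 520 FPKM, and SRUG_08086, of 308 bases on contig 9, had 591, 740 and 715. The libraries of SRUG_05089 and SRUG_08086 lay within 1.65 and 1.12 times of each other after TMM normalization. SRUG_06197, of 264 bases on contig 6, had 908, 402 and 684 FPKM. SRUG_08095, of 299 bases on contig 9, had 469, 1054 and 442 FPKM, and SRUG_10451, of 296 bases on contig 13, had 564, 569 and 800 FPKM. These 6 members, with means from 645 to 688 FPKM, had overlapping ranges over the libraries, and no order among them could be given. Their position at the top is bounded by the rule, which set aside every model with a mean of 708 FPKM or more.

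**Figure D1:**
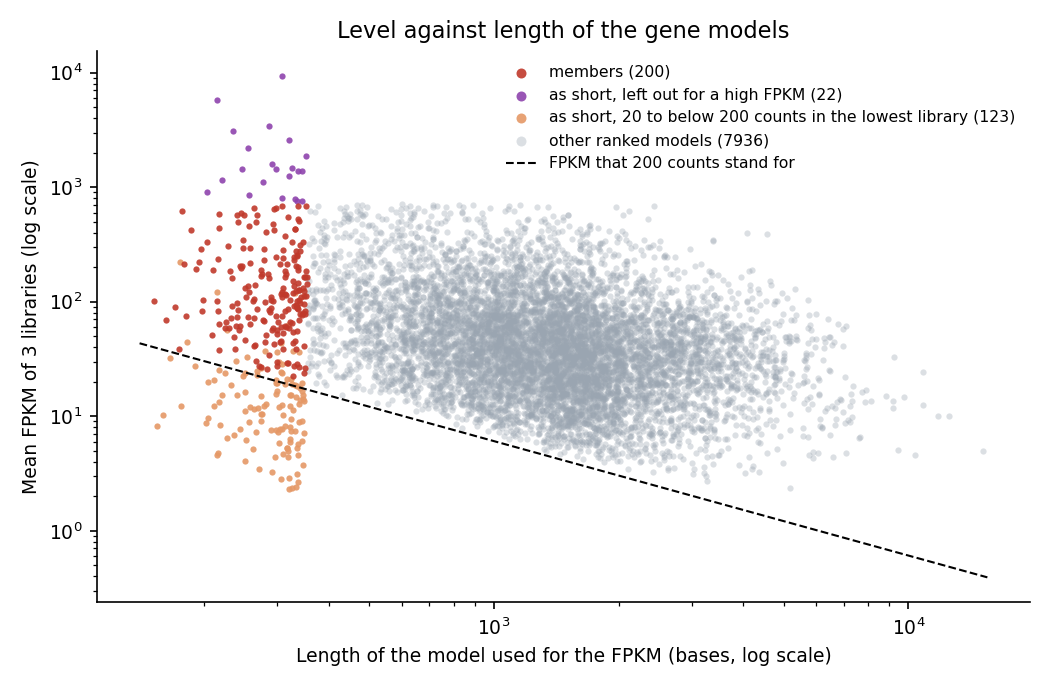
Mean FPKM of the 3 libraries against the length of each gene model in bases, both on log scales, for the 200 members, the other 7936 ranked models, the 22 models as short that were left out for a high FPKM, and the 123 models as short with 20 to below 200 counts in their lowest library. The dashed line is the FPKM that 200 counts stand for at each length, and it runs higher at the short lengths of the members than at longer ones.

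The lowest members were close to the count floor. SRUG_11541, of 328 bases on contig 18, had 22.0, 26.8 and 19.0 FPKM from 247, 287 and 200 counts in libraries 1, 2 and 3, the last being the floor itself. SRUG_05065 on contig 5 had 33.8, 18.5 and 18.8 FPKM, SRUG_07159 on contig 8 had 26.6, 28.4 and 23.3, and SRUG_11682 on contig 19 had 39.4, 18.9 and 20.4. In SRUG_05065 and SRUG_11682, library 1 lay above the other libraries, which were nearly equal.

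The 6 shortest members ranged from 38.8 to 621 FPKM in mean. SRUG_08712 had 671, 666 and 525 FPKM in libraries 1, 2 and 3 from 4064, 3851 and 2967 counts, a mean above that of 98.4% of all models, for a length of 177 bases. SRUG_05725 had 151, 269 and 223 FPKM, and SRUG_05084, the shortest member, had 109, 86.0 and 108. SRUG_03312 and SRUG_10542 followed with means of 89.4 ± 12.0 and 69.6 ± 44.3 FPKM (SD, n = 3 each). SRUG_10542 had 47.9, 40.3 and 121 FPKM, so library 3 alone was high. SRUG_11380 had 38.6, 36.0 and 41.7 FPKM, from 205 to 232 counts. Within the members, length and mean FPKM were hardly related, with a Spearman's rho of −0.02 across the 200 models, against −0.31 across the 7936 other ranked models. The median was 104 FPKM in the 13 members under 200 bases and 110 in the 99 members of 300 bases or more. These correlations are across genes of the same libraries and share the floor described next. By the rule, the members span only 152 to 354 bases and the other ranked models 355 to 15106. The values of rho thus do not compare like ranges of length.

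The count floor acted on the members more strongly than on longer models, and the high levels above follow from it in part by construction. At 152 bases, the length of the shortest member, 200 counts stand for 38.5, 40.3 and 41.2 FPKM in libraries 1, 2 and 3, and at 354 bases for 16.5, 17.3 and 17.7 FPKM. At the median length of the ranked models, 200 counts stand for 4.30, 4.50 and 4.61 FPKM. A model of 152 bases at the median level of all models (23.9 FPKM) therefore could not enter, whereas a model of 354 bases could. A further 123 models were as short as the members by count divided by FPKM but had 20 to below 200 counts in their lowest library. Their mean FPKM had a median of 12.2, and 24 of them were above the median of all models. At the upper end, 22 of the 150 models set aside (14.7%) were as short as the members, with means from 760 to 9397 FPKM. The shortest of these was SRUG_01970, of 203 bases on contig 2, with 722, 846 and 1147 FPKM.

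With both excluded groups added back, 345 short models had at least 20 counts in every library. Their median was 66.5 FPKM, against 32.7 FPKM for the 9347 longer models past the same lower floor. A mean above the median of all models was found for 244 of them (70.7%), against 60.2% of the longer models. The floor of 20 counts still favours high FPKM in short models, and the 2058 models below it were not placed by length.

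A comparison in which the floor acts alike was made at a common limit, the FPKM at which the shortest member would have 200 counts, applied in every library to members and other ranked models. Of the members, 164 (82.0%) were past it, against 3274 (41.3%) of the other ranked models. Both shares are of models already past the count floor, which asked a higher FPKM of the members. The shares therefore differ in part by the rule, and only levels past the limit are compared alike. Past this limit, the members had a median of 131 FPKM and the other ranked models 88.5, a ratio of 1.48, or 0.57 on the log2 scale. The log2 ratio was 0.74, 0.59 and 0.50 in libraries 1, 2 and 3. The medians fell gradually with length. The other ranked models past the limit, in 5 groups of rising length, had medians of 114 (355 to 833 bases), 88.2, 85.9, 78.8 and 70.0 FPKM (2184 bases and longer).

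The members were somewhat more variable between libraries than the other ranked models. The coefficient of variation (CV) of TMM-normalized CPM over the 3 libraries had a median of 0.203 in the members and 0.173 in the other ranked models. It ranged from 0.0135 to 1.00 among the members. The highest library was over 2 times the lowest in 39 members (19.5%), against 13.1% of the models past the floor and 12.8% of the other ranked models. Over 3 times was reached by 11 members (5.5%), against 3.17%. With the deposited FPKM in place of TMM-normalized CPM, 30 of the 200 members were over 2-fold. The share of the other models by that scaling was not computed, so the excess is given with TMM only. The counts that follow are with TMM. The shortest members were not the most variable, as 1 of 13 under 200 bases was over 2-fold (7.69%), 5 of 34 from 200 to below 250 (14.7%), 9 of 54 from 250 to below 300 (16.7%) and 24 of 99 of 300 bases or more (24.2%). The nearest group of longer models (355 to 833 bases) had a median CV of 0.189. Members over 2-fold were more frequent than other models over 2-fold whichever library was left out. With the same members and each library left out in turn, 16 members were over 2-fold without library 1, 12 without library 2 and 28 without library 3, which is 8.0%, 6.0% and 14.0% of the members, against 5.92%, 3.01% and 9.35% of the other ranked models.

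Set beside models in the same range of counts, the difference lay in members with many counts. From a mean of 2100 to below 7963 counts, the highest range that holds members, 15 of 51 members (29.4%) were over 2-fold and the median CV was 0.274, against 10.4% and 0.158 in the 2852 other ranked models of that range. From 200 to below 600 counts, 7 of 55 members (12.7%) were over 2-fold with a median CV of 0.185, against 16.0% and 0.204. Estimated counting error was small in both ranges. At an assumed 2 counts per fragment, counting alone would give a median CV of 0.0236 and 0.0690 in these members. Set beside models in the same range of FPKM, members and other ranked models were closer, except from 50 to below 100 FPKM. From 200 to below 700 FPKM, 16 of 56 members (28.6%) were over 2-fold, against 22.7%, and from 100 to below 200 FPKM 8 of 53 (15.1%), against 16.5%. From 50 to below 100 FPKM, 13 of 60 members (21.7%) were over 2-fold, against 9.47%. From 20 to below 50 FPKM it was 2 of 31 members (6.45%), against 9.66%. Other ranked models with counts or FPKM outside the ranges of the members are not in these shares.

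**Figure D2:**
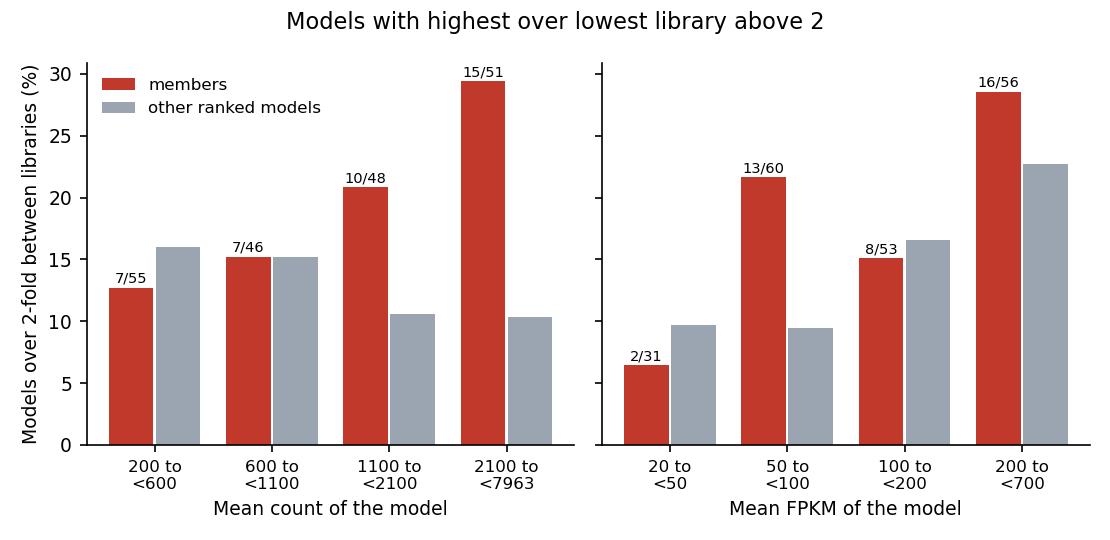
Percentage of models whose highest library was over 2 times the lowest, by ranges of mean count (left) and of mean FPKM (right), for members and other ranked models; the numbers above the bars give members over 2-fold out of members in the range. From a mean of 2100 to below 7963 counts it was 29.4% of the members and 10.4% of the others, while from 200 to below 700 FPKM it was 28.6% and 22.7%; models outside the ranges shown are left out.

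The most variable members differed in which library was high. SRUG_07027, of 341 bases on contig 7, had 203, 36.0 and 51.7 FPKM in libraries 1, 2 and 3, from 2368, 401 and 564 counts, with library 1 alone high and the highest CV of all members (1.00). SRUG_10208, of 320 bases on contig 12, had 144, 1130 and 360 FPKM, from 1575, 11822 and 3673 counts. Here library 2 was 7.04 times the lowest library after normalization. SRUG_05874, of 335 bases on contig 6, had 21.8, 113 and 32.7 FPKM, and with SRUG_09150, described above, these were the 4 members of highest CV. In 3 of the 4, library 2 was the high one. Over all 39 members above 2-fold, library 2 was the highest in 11, library 1 in 25 and library 3 in 3. The 10 highest members of each library, taken anew in each, held 24.8% of the summed FPKM of the members in library 2. In libraries 1 and 3 they held 18.8% and 18.7%.

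The steadiest members had moderate levels. SRUG_00357, of 232 bases on contig 1, had 66.3, 76.1 and 73.5 FPKM in libraries 1, 2 and 3, and a CV of 0.0135 in normalized CPM. SRUG_10903 on contig 15 had 63.3, 73.0 and 71.6 FPKM, SRUG_08630 on contig 10 had 70.0, 75.0 and 76.0, and SRUG_09421 on contig 11 had 109, 119 and 122. In each of these 4, library 1 was the lowest in FPKM, and the TMM factor of library 1 was 0.935.

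**Figure D3:**
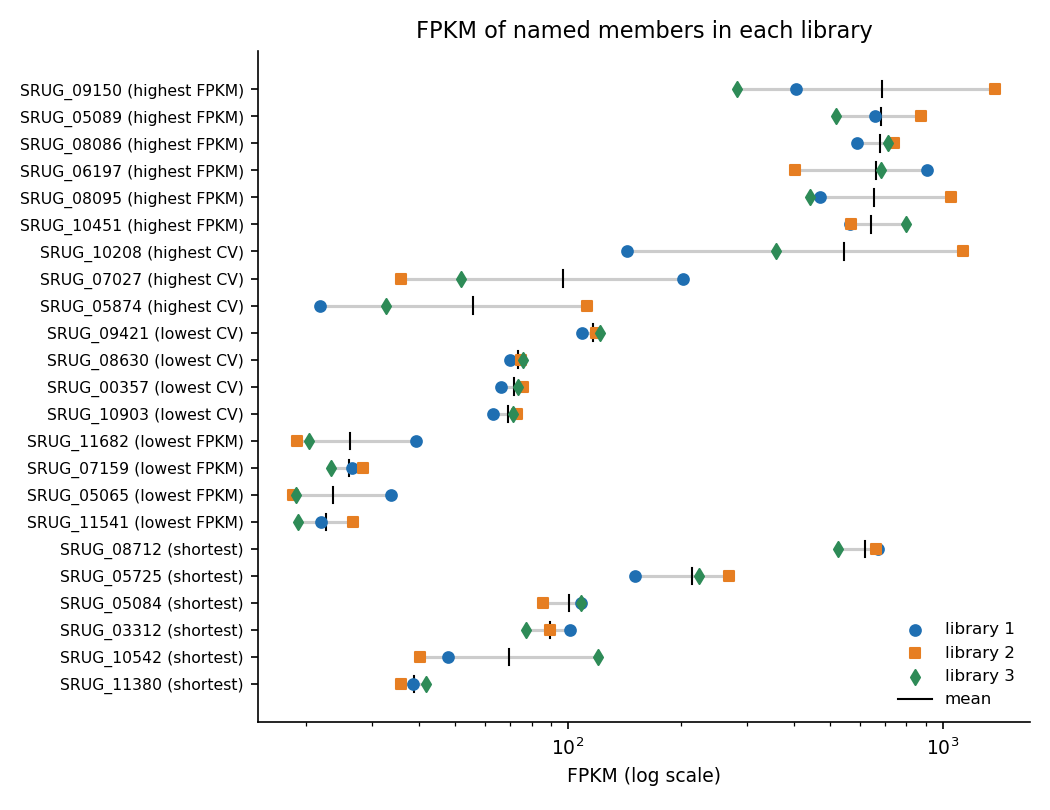
FPKM (log scale) of the members with the highest mean, the highest and lowest CV, the lowest mean and the shortest length, with a symbol for each of the 3 libraries and a vertical stroke for their mean; a member in several of these classes is drawn once. The libraries of SRUG_10208 and SRUG_09150 lie far apart with library 2 the highest, whereas those of SRUG_00357 nearly coincide.

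Library 1 was the highest library in more members than among models at large. After TMM normalization, 115 of the 200 members (57.5%) were highest in library 1, against 37.1% of the models past the floor, 48 (24.0%) in library 2, against 37.1%, and 37 (18.5%) in library 3, against 25.9%. In turn 35 (17.5%) were lowest in library 1, against 34.6%, 108 (54.0%) in library 2, against 38.5%, and 57 (28.5%) in library 3, against 26.9%. With the deposited FPKM, 87 (43.5%) were highest in library 1, against 24.8% of the other ranked models, and 98 (49.0%) lowest in library 2, against 30.4%, so the members exceeded the other models in both shares under either scaling. The scalings differ by a shift, as the median log2 ratio of library 1 to library 2 over the other ranked models was 0.01 with TMM and −0.15 with FPKM. Of the 39 members over 2-fold after TMM normalization, 25 were highest in library 1 and 25 lowest in library 2. How many of the other models over 2-fold were so was not computed. These counts therefore have no background and show nothing particular to the variable members. After TMM normalization, library 1 exceeded library 2 in 143 members (71.5%) and library 3 in 137 (68.5%), against 50.9% and 50.5% of the other ranked models. With the deposited FPKM it did so in 126 (63.0%) and 111 (55.5%), against 39.2% and 36.7%.

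The ratio between libraries differed with model length. The median log2 ratio of library 1 to library 2, in TMM-normalized CPM, was 0.36 in the 47 members under 250 bases, of which the 13 under 200 bases had 0.33. It was 0.24 in the 54 members from 250 to below 300 bases and 0.25 in the 99 of 300 bases or more, so it did not change steadily within the members. In the 5 groups of longer models it was 0.13, 0.05, 0.02, −0.02 and −0.09, the last for models of 2184 bases and longer. The median over all members exceeded that over the other ranked models by 0.32 with TMM, with DESeq2 size factors and with the deposited FPKM. For library 1 against library 3, the median was 0.21 in the members under 250 bases, 0.23 from 250 to below 300 bases and 0.20 at 300 bases or more, against 0.04 in the first group of longer models (355 to 833 bases) and between −0.03 and 0.02 beyond. The labels give 150 to 200 bases as the preferred fragment length, and 13 members were shorter than the upper value. The part of fragment length or RNA quality in this pattern was not tested, and neither was measured in the files used here. The correlation of log2 FPKM (Pearson's r) over the 200 members was 0.857 for libraries 1 and 2, 0.936 for 1 and 3 and 0.910 for 2 and 3, against 0.920, 0.962 and 0.930 over the other ranked models. These values are across genes that share their libraries. Pearson's r depends on the range of levels. Mean FPKM ran from 22.6 to 688 in the members and from 2.34 to 708 in the other ranked models.

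**Figure D4:**
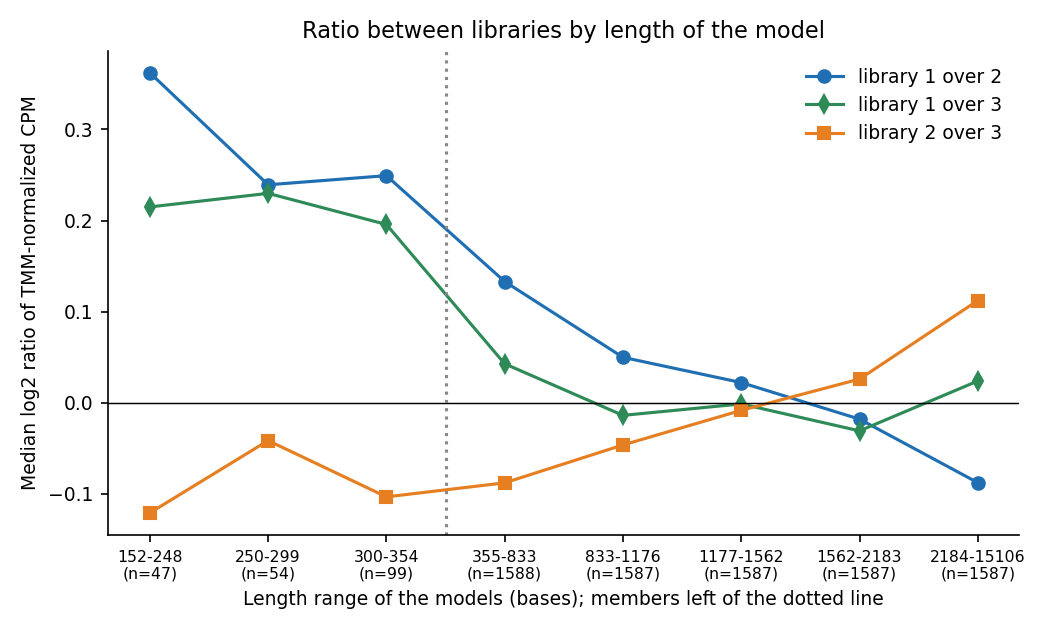
Median log2 ratio of TMM-normalized CPM between each pair of libraries, in 3 length ranges of the members (left of the dotted line) and in 5 groups of longer ranked models, with lengths in bases and the number of models below each. The ratio of library 1 to library 2 is 0.36, 0.24 and 0.25 in the members and lies between 0.13 and −0.09 in the longer models.

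The members were scattered over the assembly. They lay on 19 of the 21 contigs, and contigs 20 and 21, which had 1 ranked model each, had none. Contig 2 held 34 members, contig 5 held 29 and contig 3 held 22, which are 3.20%, 3.44% and 2.36% of their ranked models, against 2.46% over all contigs. The highest shares among contigs with at least 100 ranked models were on contig 17, with 6 members of 108 ranked models (5.56%), and contig 12, with 9 of 167 (5.39%), and the lowest on contig 14, with 1 of 161 (0.621%). These rest on few members, and no test was made. Near contig ends, within 20 models, lay 4 members (2.0%), against 3.44% of the ranked models and 6.83% of all models.

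**Figure D5:**
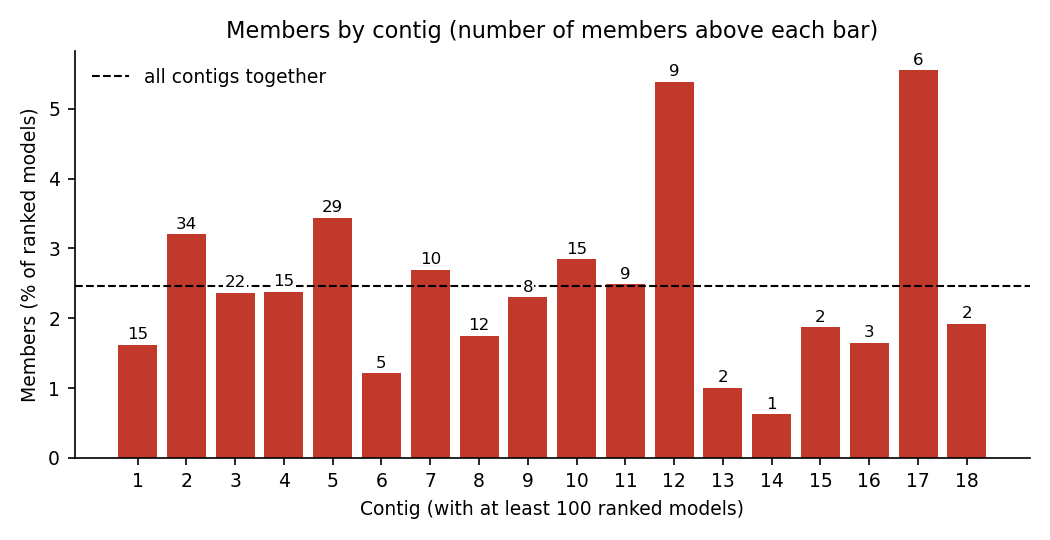
Members as a percentage of the ranked models on each contig with at least 100 ranked models, with the number of members above each bar and the share over all contigs as a dashed line. The shares run from 0.621% on contig 14 to 5.56% on contig 17, with 2.46% over all contigs.

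Few members adjoined each other. The members are 1.70% of all models, so few adjoining members would be found in a scattered set of this size, and no test was made. The median distance between successive members on a contig was 27 models, and 6 members were next to another member, in 3 pairs, all on contig 5. With the members chosen again without library 3, 11 members were next to another. SRUG_05703 and SRUG_05704, models 980 and 981 of 234 and 215 bases, had 153, 173 and 160 FPKM and 98.5, 107 and 98.7 FPKM in libraries 1, 2 and 3. Both were steady, with CVs of 0.0316 and 0.0462. SRUG_05133 and SRUG_05134, models 408 and 409, had means of 84.1 ± 9.71 and 43.8 ± 5.32 FPKM (SD, n = 3 each). SRUG_05369 had 30.8, 30.1 and 28.9 FPKM and its neighbour SRUG_05370 517, 263 and 263 FPKM, a ratio of means of 11.6 between models 645 and 646. Neighbours therefore ranged from similar to widely different levels. Whether neighbouring members share sequence was not tested, and how reads that fit several models were counted is not stated.

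Most members stood above the models beside them. Of the 194 members with a listed model on both sides, 136 (70.1%) had a higher mean FPKM than either, where 39.3% of the ranked models did. The count floor asks a higher FPKM of short models and nothing of the models beside them. This contrast therefore follows at least in part from the rule. Among the 6 highest members, SRUG_08086 had a mean of 682 FPKM between neighbours of 21.2 and 17.0 FPKM, and SRUG_05089 had 684 between 6.22 and 8.66. At the common FPKM limit the share was 123 of 160 members (76.9%), against 63.8% of the other ranked models. Past this limit the members themselves had the higher median level (131 against 88.5 FPKM). The mean level of the flanking models had a median of 43.0 FPKM in these members and 45.2 FPKM in the other ranked models.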

How the data were processed

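The authors deposited whole-number counts per gene model and per transcript, without normalization, and FPKM values in a pair of tables; counts and FPKM each differed in 0 cells between their tables. The submitters' processing notes name fastp, HISAT2 and StringTie without a role or version. The sources used here do not give strand use, the handling of multi-mapping reads or the depth behind the FPKM. Library 1 held 31831513 counts, library 2 30516180 and library 3 29678333. The number of unmatched per-sample columns was 0. The members, lists and limits were chosen with earlier results of these data known, and the comparisons of library ratios by length and of spread by FPKM were added after seeing the data.

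For models with at least 20000 counts, the largest unit was sought for which count divided by FPKM is whole (mean distance from a whole base 0.0185, 0.0136 and 0.0159). A smaller unit would multiply all lengths; the unit found puts the FPKM total at 1.07, 1.07 and 1.08 times the table total. Each length is the whole number allowed by all libraries if counts are rounded up. Of the 600 member counts, 600 exceeded the value computed from FPKM and length by 0 to 1, as the choice of length requires, and these excesses were spread evenly (25.2%, 25.3%, 24.5% and 25.0% in 4 equal ranges). The counts were therefore taken as rounded up from values that were not whole, and estimates for counting error are approximate. Length recovery and CV were tested on simulated data. These were built with the same unit and rounding up that the recovery assumes. The test therefore cannot show that the deposited values follow them or that the unit is 1 base. TMM factors came from edgeR 4.0.16 (R 4.3.3), with DESeq2 1.42.0 size factors as an alternative; Python 3.11.15, pandas 2.3.3, NumPy 2.4.6, SciPy 1.17.1 and matplotlib 3.10.9 were used. With 1 condition, no differential test was possible. Named members are the 6 shortest, the 6 highest and 4 lowest by FPKM, the 4 highest and 4 lowest by CV, the neighbouring pairs, the 3 models on each side of the length limit, and the shortest model left out for a high FPKM.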

Additional observations from a re-analysis of the deposited data

How the results depend on the processing

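The median FPKM of the members followed the rule. It was 65.5, 83.8 and 141 at count floors of 50, 100 and 500, 119 with no model left out for a high FPKM, 121 in TPM, and 97.4 to 107 with each library left out. The median length was 274, 284.5 and 331 bases at these floors, 291.5 with no model left out, 252.5 and 354.5 for 100 and 400 members, and 295 to 299 without a library. At the common FPKM limit, the log2 ratio of members to longer models was 0.73, 0.78 and 0.33 at these floors, 0.88 with no model left out, 0.86 for 100 members and 0.89 at the limit of the median member, and 0.50 to 0.65 without a library. Above the median of all models were 100 of 100 members, 385 of 400 members, and 105 of 200 by CPM. The median CV was 0.151 to 0.209 without a library, and the SD of log2 FPKM was 0.276 and 0.279 with pseudocounts of 1 and 0.1. Members over 2-fold numbered 15 of 100, 68 of 400, and 12 to 28 without a library, 97 at a limit of 1.5 and 11 at 3. With the deposited FPKM they numbered 30. Members beside another member numbered 10, 12 and 11 at the 3 floors, 2 of 100, 46 of 400, 6 to 11 without a library, 18 at most 2 models apart and 52 at most 5 apart. Highest in library 1 were 59 of 100 and 196 of 400 members, and the excess in the log2 ratio of library 1 to library 2 was 0.20 at a floor of 500 and 0.19 for 400 members. Of the 200 members, 137, 163 and 142 were kept at floors of 50, 100 and 500, 181 with no model left out, and 189 to 193 without a library. No paired analysis was possible because the libraries form a single group.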
